A study of Mus musculus with 12 samples.

Results

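Proliferation genes were examined in rhabdoid tumors (RTs) from mice of the genotype P0-CreC;Smarcb1 flox/flox. The list held 42 genes of DNA replication and mitosis, a list set by their known roles, among 24060 genes with a value in every tumor. Of these, 19 were grouped as genes of S phase or of entry into it and 23 as genes of M phase. The grouping is rough, as some members act in more than 1 phase. All 42 reached the minimum of 1 RPKM in at least 3 tumors, as did 15043 genes in all. RPKM is a read number divided by the length of the gene's transcript and by the depth of the library, so that levels of different genes can be compared.

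The RNA came from 12 tumors that arose naturally in these mice, which were on an FVB/N background. Both Smarcb1 alleles carried flox sites in every animal, and Cre recombinase was driven by the P0 promoter, which is active in neural crest cells and in the Schwann cell lineage. The labels placed 4 tumors retro-orbitally, 3 in the cheek, 3 in the meninges, 1 in the vestibular nerve and 1 in the trigeminal nerve. They gave no age, sex or tumor size, and no normal tissue or tumor with Smarcb1 was among the 12 libraries. Tumors carry numbers only as names. Cheek tumors 2 and 3, cheek tumor 1 with meninges tumor 1, and retro-orbital tumor 3 with the trigeminal tumor shared the first part of an identifier. Whether such tumors came from the same animal was not stated, so p-values measure only the spread between these tumors.

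Before a cell copies its DNA, the MCM helicase is loaded at origins with the help of Cdc6 and Cdt1, and the G1 cyclins of the E type release E2F factors from the Rb family. E2F factors then switch on the replication genes. Genes of M phase follow later and are driven by Mybl2 and Foxm1 through the cell cycle genes homology region (CHR), a short promoter element often found near CCAAT boxes. RTs are fast-growing tumors that lack the SMARCB1 subunit of the SWI/SNF chromatin complex. Transcripts of both programs are low in resting cells, and their level in bulk RNA is widely read as a sign of dividing cells. Fewer cells of a type and less RNA per cell cannot be told apart in such samples.

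The promoter windows of members from both programs are shown with the elements by which S phase and M phase genes are usually told apart. Not every window followed that division. Of those shown, only Mcm6 held E2F matches, and the S phase gene Mcm2 held CHR and CCAAT letters but no E2F match. Each window is the RefSeq reference sequence on GRCm38.p6, the same build as mm10, from 250 bases before to 50 bases after the annotated start, written 5′ to 3′ on the strand of the gene. Capitals mark matches on either strand to the E2F motif (TTTCCCGC, TTTGGCGC, TTTCGCGC or TTTGCCGC), the CHR (TTTGAA or TTCGAA) or CCAAT. Mcm2 followed the other members most closely, Mcm6 is an S phase gene with E2F matches, Aurka and Plk1 are the mitotic kinases examined singly, and Cdc20 and Top2a had the largest single deviations among the M phase genes.
Mcm2 (chr6:88898731-88899030, minus strand): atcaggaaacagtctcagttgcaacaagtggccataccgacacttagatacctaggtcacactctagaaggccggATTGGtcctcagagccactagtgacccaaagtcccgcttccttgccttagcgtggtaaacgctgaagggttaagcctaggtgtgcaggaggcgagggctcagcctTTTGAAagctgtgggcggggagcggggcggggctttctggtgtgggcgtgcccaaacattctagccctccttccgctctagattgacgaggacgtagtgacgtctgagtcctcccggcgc
Mcm6 (chr1:128359656-128359955, minus strand): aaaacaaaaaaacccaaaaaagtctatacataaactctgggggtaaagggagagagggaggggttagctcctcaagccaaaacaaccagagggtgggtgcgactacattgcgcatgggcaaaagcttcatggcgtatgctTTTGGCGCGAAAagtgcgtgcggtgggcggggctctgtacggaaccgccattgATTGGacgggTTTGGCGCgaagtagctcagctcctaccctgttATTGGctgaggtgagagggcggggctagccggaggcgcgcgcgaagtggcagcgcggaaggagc
Aurka (chr2:172370521-172370820, minus strand): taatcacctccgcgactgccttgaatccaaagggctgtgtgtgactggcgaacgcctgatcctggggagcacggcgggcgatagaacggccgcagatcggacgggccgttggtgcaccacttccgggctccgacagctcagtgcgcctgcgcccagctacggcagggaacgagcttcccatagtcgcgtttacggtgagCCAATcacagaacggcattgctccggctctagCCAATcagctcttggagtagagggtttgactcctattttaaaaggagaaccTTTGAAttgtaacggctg
Plk1 (chr7:122159185-122159484, plus strand): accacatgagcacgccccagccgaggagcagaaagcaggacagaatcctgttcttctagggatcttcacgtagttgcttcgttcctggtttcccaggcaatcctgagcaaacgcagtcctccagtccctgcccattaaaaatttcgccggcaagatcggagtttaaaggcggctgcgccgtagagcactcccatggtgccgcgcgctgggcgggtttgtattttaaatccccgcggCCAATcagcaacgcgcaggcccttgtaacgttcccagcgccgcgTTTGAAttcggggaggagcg
Cdc20 (chr4:118437294-118437593, minus strand): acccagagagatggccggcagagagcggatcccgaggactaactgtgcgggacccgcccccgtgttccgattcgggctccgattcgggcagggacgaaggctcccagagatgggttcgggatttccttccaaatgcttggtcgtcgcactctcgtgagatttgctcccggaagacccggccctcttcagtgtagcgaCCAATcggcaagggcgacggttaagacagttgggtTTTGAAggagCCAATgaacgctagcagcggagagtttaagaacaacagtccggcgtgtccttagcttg
Top2a (chr11:99024140-99024439, minus strand): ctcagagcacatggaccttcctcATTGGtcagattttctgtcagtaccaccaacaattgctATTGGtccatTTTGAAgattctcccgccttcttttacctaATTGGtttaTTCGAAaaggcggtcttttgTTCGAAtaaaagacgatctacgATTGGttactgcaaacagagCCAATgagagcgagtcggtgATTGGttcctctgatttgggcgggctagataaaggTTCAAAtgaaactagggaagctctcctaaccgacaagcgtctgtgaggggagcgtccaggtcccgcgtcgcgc

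Windows were found for 34 of the 42 members. None was used for Mcm4, Gins2, Ccne2, Ccna2, Foxm1, Aurkb, Tpx2 and Kif20a. An E2F match was present in 7 of 16 S phase windows (43.8%) and in 1 of 18 M phase windows (5.56%), that of Cdk1, the kinase that starts mitosis. Of all 27025 windows, taken as 1 for each symbol, 2.32% held such a match. The CHR letters were present in 4 of 16 S phase windows (25%), in 12 of 18 M phase windows (66.7%) and in 19.4% of all windows. CCAAT was present in 10 of 16 S phase windows (62.5%), 14 of 18 M phase windows (77.8%) and 37.9% of all windows. In Mcm5 and Mcm6, E2F matches on opposite strands overlapped. A match describes the letters of the reference genome and not binding in these tumors.

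The RPKM values were scaled to a total of 13206168 to 57128422 in a tumor (median 27929720), as inferred from the values themselves. No source used here states these totals. They do not match the read numbers per sample in the paper's methods, which span a narrower range. Whether they include a normalization factor is not known. By these totals the member with the fewest fragments in any tumor, Mybl2, still had 122. Smarcb1, the deleted gene, was measured at 1.70 to 6.31 RPKM (median 4.61), lowest in the vestibular tumor and highest in meninges tumor 3. In the paper's staining, infiltrating inflammatory and endothelial cells of such tumors kept SMARCB1. The source of the Smarcb1 RNA measured here was not tested. The tumor pieces also held RNA of other cells. Summed markers ranged from 143 to 759 RPKM over 7 leukocyte genes, 16.2 to 74.1 over 5 endothelial genes, 5.005 to 533 over 6 skeletal muscle genes, 16.6 to 343 over 6 genes of glia and neurons, and 171 to 851 over 4 fibroblast genes. No marker was at 0 in any tumor.

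Among all 24060 genes the members were expressed at medium to high levels, from percentile 55.0 (E2f2) to 97.2 (Pcna) by median. Their median over tumors ranged from 3.03 RPKM (E2f2) to 73.0 RPKM (Pcna). The median was 16.2 RPKM over the 42 members against 8.18 RPKM over the genes that passed the minimum. Some members, such as E2f2, Mybl2 and Cdc6, lay below the latter. The highest tumor exceeded the lowest by 2.17-fold (Cenpa, the histone of the centromere) to 11.5-fold (Cdc6), with a median of 4.05-fold. On the log2(RPKM + 1) scale the median range over tumors was 1.85 for members and 1.57 for all genes passing the minimum.

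Among the 9 licensing genes, Mcm4, a subunit of the replicative helicase, had the highest median (44.3 RPKM, range 20.03 to 75.6). Cdc6, which helps to load that helicase, had the lowest median and the widest range (4.03 RPKM, range 0.830 to 9.54). The other helicase subunits Mcm2, Mcm3, Mcm5, Mcm6 and Mcm7 had medians from 24.97 RPKM (Mcm5) to 38.2 RPKM (Mcm6). The loading factor Cdt1 had a median of 15.1 RPKM, and Gins2, a part of the complex that activates the helicase, 14.9 RPKM. Of the 5 genes of DNA synthesis, the sliding clamp Pcna was highest. The thymidylate synthase Tyms was lowest and most variable (median 6.61 RPKM, range 3.39 to 15.9). The ribonucleotide reductase subunits Rrm1 and Rrm2 had medians of 40.7 and 31.8 RPKM, and the flap endonuclease Fen1 had 11.1 RPKM. In the group of S phase entry, the cyclin gene Ccne1 had the highest median and the widest range of all members on the log2 scale (median 23.2 RPKM, range 5.06 to 52.0). Its paralog Ccne2 had a median of 6.43 RPKM, and the E2F factors E2f1, E2f8 and E2f2 had 11.0, 5.41 and 3.03 RPKM.

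Among the drivers of mitosis, the cyclin gene Ccna2 had the highest median (41.1 RPKM) and the transcription factor Mybl2 the lowest (3.31 RPKM), while Cdk1 had the widest range (11.9 to 49.5 RPKM). The mitotic cyclins Ccnb1 and Ccnb2 had medians of 14.97 and 24.7 RPKM, and Foxm1, which activates genes of late cell cycle, 7.52 RPKM. Among the mitotic kinases and their partners, the spindle factor Tpx2, which activates the Aurora A kinase, was highest (22.7 RPKM), Plk1 was lowest (10.5 RPKM) and Aurkb, the Aurora kinase of the chromosomal passenger complex, had the widest range (4.54 to 23.1 RPKM). Birc5, another part of that complex, had a median of 14.5 RPKM, the centriole kinase Plk4 13.0 RPKM and Aurka 15.6 RPKM. Of the checkpoint group, Cdc20, which activates the anaphase-promoting complex, was highest (25.9 RPKM), the checkpoint kinase Bub1 was lowest (8.74 RPKM), and Ube2c, the ubiquitin-conjugating enzyme of that complex, ranged most widely (8.07 to 44.8 RPKM). The checkpoint genes Bub1b and Mad2l1 had medians of 16.7 and 24.4 RPKM. The spindle motors Kif11, Kif20a and Cenpe had medians of 17.1, 14.3 and 14.9 RPKM, and Cenpa had 11.9 RPKM. Top2a, which disentangles sister chromatids, and Mki67, which coats mitotic chromosomes and is the usual proliferation marker, had medians of 56.5 and 49.2 RPKM.

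The members placed retro-orbital tumor 3 at the low end of the 12 tumors and the vestibular tumor at the high end. Each member was centred on its median over the 12 tumors, and the mean of the centred log2 values was taken in each tumor. It was lowest in retro-orbital tumor 3 (-1.04), followed by retro-orbital tumors 2 (-0.57) and 1 (-0.26). It was highest in the vestibular tumor (0.65), then in meninges tumors 1 (0.37) and 2 (0.27). The other tumors lay within a narrow band, with cheek tumor 1 at 0.14, retro-orbital tumor 4 at 0.06, cheek tumor 3 at 0.01, the trigeminal tumor at -0.02, cheek tumor 2 at -0.03 and meninges tumor 3 at -0.10. Neighbours in this band differed by less than the pooled SD of tumors within a location (0.337), so their order is not resolved. Each other step between neighbours was also smaller than this SD, except that from retro-orbital tumor 2 to tumor 3. The SD is that of 1 tumor, and a difference between 2 tumors varies more. That step is therefore not shown to be resolved either.

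**Figure D1:**
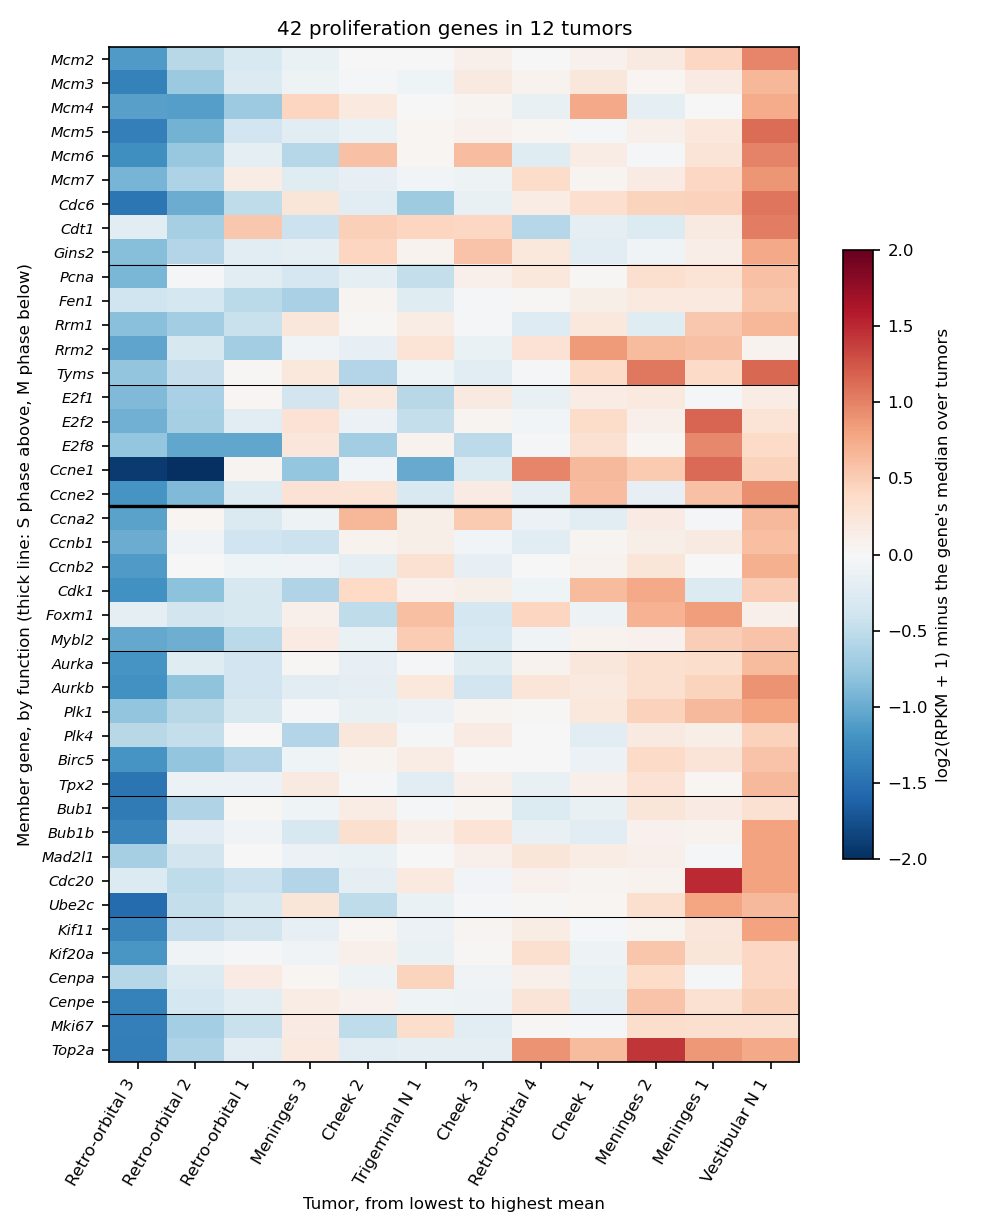
Centred log2(RPKM + 1) of the 42 members (rows, by function, S phase above the thick line) in the 12 tumors (columns, from lowest to highest mean). Retro-orbital tumor 3 is blue in nearly every row and the vestibular tumor red in nearly every row, while single cells such as Cdc20 in meninges tumor 1 and Ccne1 in retro-orbital tumor 2 leave the pattern of their column.

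In retro-orbital tumor 3, 34 of the 42 members had their lowest value, against 16.6% of all genes that passed the minimum. All 42 lay at or below their median there. The exceptions to the lowest value were Ccne1, Cdc20, Cdt1, E2f8, Fen1, Foxm1, Mcm4 and Plk4. In the vestibular tumor, 26 of 42 members had their highest value, against 20.1% of all genes, and all 42 lay above their median. The mean over all genes passing the minimum, centred in the same way, was 0.09 in retro-orbital tumor 3 and 0.12 in the vestibular tumor. Retro-orbital tumor 3 also had the highest inferred total (57128422), and its glial and neuronal markers summed to 157 RPKM against 21.4 to 72.2 RPKM in the other retro-orbital tumors. Its fibroblast markers (559 against 171 to 377.5 RPKM) and endothelial markers (70.55 against 16.2 to 58.1 RPKM) were also above those of the other retro-orbital tumors. Its muscle markers were below them (8.865 against 46.1 to 200 RPKM). Its leukocyte markers summed to 266 RPKM, within their range. The vestibular tumor had the lowest leukocyte sum (143 RPKM) and, after retro-orbital tumor 2, the lowest endothelial sum (18.6 RPKM). Over the 12 tumors, the correlation of the markers' mean log2 value with the members' mean was -0.28 for leukocytes, -0.03 for endothelium, 0.17 for muscle, 0.28 for glia and neurons and -0.16 for fibroblasts. The part of these cells in the order of tumors was not tested.

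S phase and M phase members gave nearly the same order. Over the 12 tumors the 2 means correlated at r = 0.94, and at 0.91 without retro-orbital tumor 3. The median correlation between pairs of members was 0.70 within S phase, 0.76 within M phase and 0.71 between the programs. Retro-orbital tumor 2 departed most, with S phase members at -0.74 and M phase members at -0.43. The trigeminal tumor leaned the same way, at -0.15 for S phase and 0.09 for M phase, as did meninges tumor 2 (0.16 and 0.35). Cheek tumor 1 leaned the other way (0.25 and 0.04). By function, the 5 genes of S phase entry stood at -1.05 in retro-orbital tumor 2 and at -0.46 in the trigeminal tumor, and licensing genes at -0.77 and -0.03. In these tumors the genes of DNA synthesis stood at -0.37 and -0.08. The group of licensing was highest in the vestibular tumor (0.92), the group of entry in meninges tumor 1 (0.76), and Mki67 with Top2a in meninges tumor 2 (0.89).

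**Figure D2:**
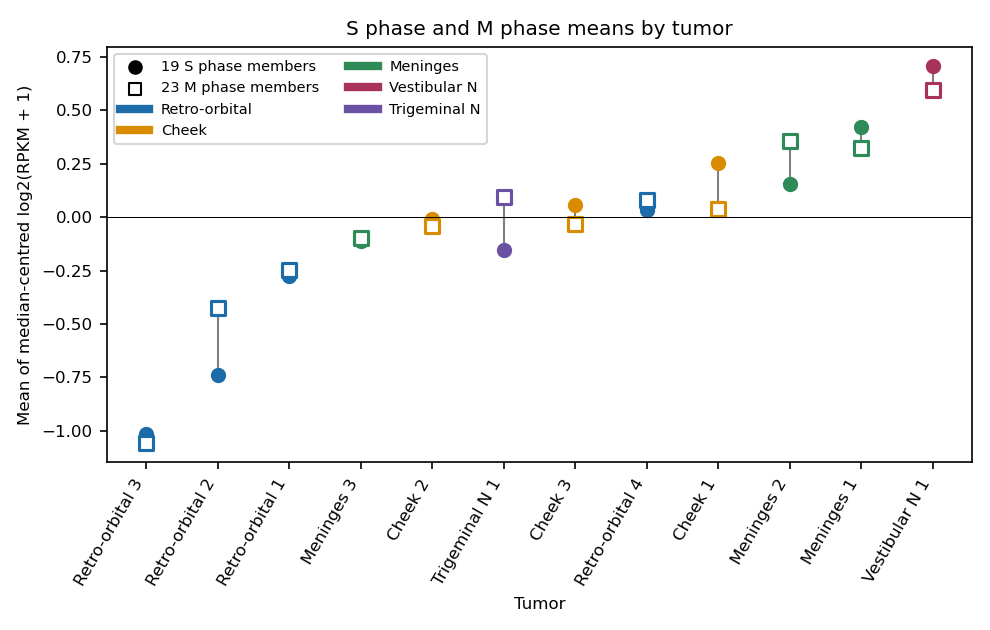
Mean of the centred log2(RPKM + 1) over the 19 S phase members (filled circles) and the 23 M phase members (open squares) in each tumor, coloured by location. Both rise from about -1.0 in retro-orbital tumor 3 to 0.71 and 0.59 in the vestibular tumor, and the widest gaps are in retro-orbital tumor 2, the trigeminal tumor and cheek tumor 1.

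To ask whether the members differed with the site of the tumor, the 10 tumors of the 3 locations with several tumors were compared. The mean of the members was -0.45 ± 0.47 (SD, n = 4) in retro-orbital tumors, 0.04 ± 0.09 (SD, n = 3) in cheek tumors and 0.18 ± 0.25 (SD, n = 3) in meninges tumors. The retro-orbital tumors spread from -1.04 to 0.06 and so overlapped both other locations. All 42 members had a higher mean in meninges than in retro-orbital tumors, by a median of 0.65 log2, and 41 were higher in cheek than in retro-orbital tumors, by a median of 0.48. Over all 14745 genes tested, 63.8% and 48.6% lay above 0 in these contrasts, with medians of 0.13 and -0.02. The first count was 41, with Cdt1 as the exception, after a scale factor for each tumor or quantile normalization, and the second stayed 41. Between meninges and cheek tumors, 28 of 42 members were higher in the meninges, with a median of 0.14, but 21 of 42 with a median of -0.02 after the scale factor. Over all genes the share was 61.9% and the median 0.16 in that contrast. Without retro-orbital tumor 3 the median difference between meninges and retro-orbital tumors was 0.43. All 7 leukocyte markers had a lower mean in cheek than in retro-orbital tumors (median -0.996), and all 6 muscle markers a higher one (median 1.02). All 5 markers of glia and neurons that were tested had a higher mean in meninges than in retro-orbital tumors (median 1.79). The part of these cells in the members' differences was not tested. The contrasts share tumors, and all members were measured in the same tumors.

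None of the 42 members passed limma's F test over the 3 locations with Benjamini-Hochberg adjustment at 0.05, in a fit in which 6 genes (0.0407%) passed. At an unadjusted p under 0.05 the counts were 13 of 42 members (31.0%) and 2110 of all genes (14.3%). The lowest adjusted p among members was that of Mcm4 (0.222, limma), at 20.03 to 39.7 RPKM in retro-orbital, 46.1 to 75.6 in cheek and 38.5 to 60.1 in meninges tumors. Its retro-orbital values overlapped those of the meninges and lay below those of the cheek. Rrm1 followed (adjusted p = 0.267, limma), with 22.3 to 33.9 RPKM retro-orbitally and 34.2 to 59.9 RPKM in the meninges. For 10 of 42 members, every meninges tumor lay above every retro-orbital tumor, against 6.96% of all genes. They were Ccne2, Cdc6, E2f2, E2f8, Mki67, Mybl2, Rrm1, Tpx2, Tyms and Ube2c. With the shared first part of the identifier as a random block, at a correlation of 0.93 estimated from only 2 pairs of tumors, 8 members (Mcm4, Rrm1, E2f2, E2f8, Cdk1, Foxm1, Plk1 and Cdc20) and 2802 genes passed.

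**Figure D3:**
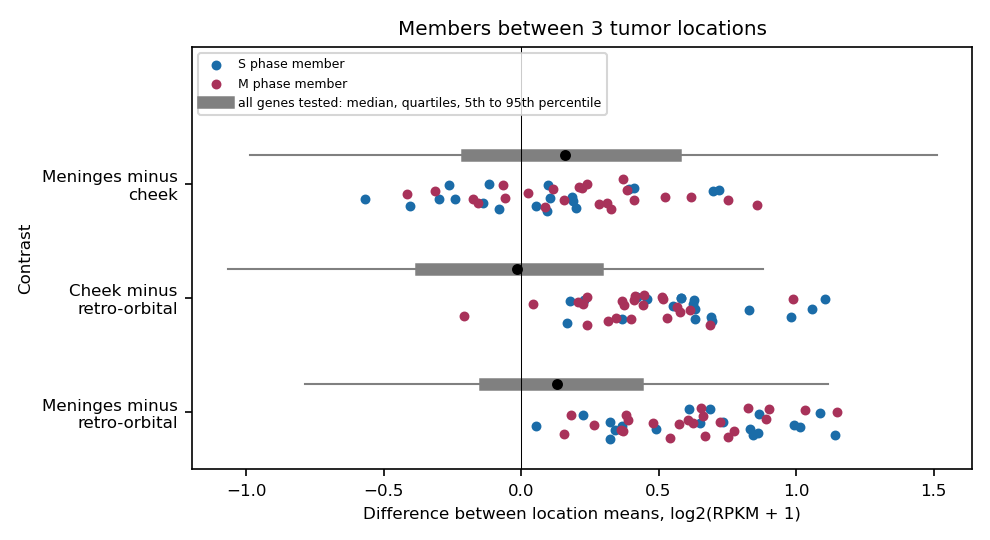
Difference between location means on the log2(RPKM + 1) scale for each S phase member (blue) and M phase member (red), with the median (black point), quartiles (thick bar) and 5th to 95th percentile (thin line) of all genes tested above them. Members lie to the right of 0 in both contrasts with retro-orbital tumors, with the exception of Foxm1 at -0.21 for cheek minus retro-orbital, and on both sides of 0 between meninges and cheek.

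Mki67 was 35.9, 30.4, 18.6 and 49.8 RPKM in retro-orbital tumors 1 to 4, 48.6, 34.4 and 42.04 in cheek tumors 1 to 3, and 61.5, 63.1 and 55.2 in meninges tumors 1 to 3. Meninges tumors thus lay above all tumors of the other locations with several tumors, while cheek and retro-orbital tumors overlapped. The exact permutation test of the F statistic over all 4200 labellings gave p = 0.0614 (n = 10). Without retro-orbital tumor 4, the tumor of that site with the highest value, the exact test gave p = 0.00714, while leaving out any other tumor gave an exact p from 0.0679 to 0.158. In the fit across all genes, Mki67 was 0.89 ± 0.29 log2 (SE) higher in meninges than in retro-orbital tumors (limma F test, adjusted p = 0.330). The vestibular tumor had 61.6 RPKM and the trigeminal tumor 63.0 RPKM.

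Aurka, the kinase of centrosomes and spindle poles, was 11.8, 13.0, 6.37 and 16.4 RPKM in retro-orbital tumors 1 to 4, 18.6, 13.8 and 13.1 in cheek tumors 1 to 3, and 20.1, 19.8 and 15.8 in meninges tumors 1 to 3. The trigeminal tumor had 15.4 RPKM and the vestibular tumor 24.8 RPKM. Retro-orbital tumor 3 was lowest and the vestibular tumor highest, and the locations overlapped. The difference between meninges and retro-orbital tumors was 0.66 ± 0.28 log2 (SE; limma F test, adjusted p = 0.416), and 0.41 without retro-orbital tumor 3.

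Plk1, which acts at centrosomes, kinetochores and in cytokinesis, was 8.23, 6.89, 5.65 and 10.7 RPKM in retro-orbital tumors 1 to 4, 12.3, 9.42 and 10.9 in cheek tumors 1 to 3, and 17.1, 14.9 and 10.4 in meninges tumors 1 to 3. It reached 18.9 RPKM in the vestibular tumor and 9.67 RPKM in the trigeminal tumor. Again the ends were the same tumors as for Aurka. The difference between meninges and retro-orbital tumors was 0.77 ± 0.24 log2 (SE; limma F test, adjusted p = 0.325).

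Pcna varied least of the genes examined singly. It was 62.3, 71.4, 38.4 and 84.5 RPKM in retro-orbital tumors 1 to 4, 74.6, 64.6 and 78.8 in cheek tumors 1 to 3, and 88.7, 91.1 and 57.4 in meninges tumors 1 to 3. Meninges tumor 3 and the trigeminal tumor (52.3 RPKM) were low beside their Mki67. The difference between meninges and retro-orbital tumors was 0.32 ± 0.27 log2 (SE; limma F test, adjusted p = 0.707). It was 0.0999 without retro-orbital tumor 3, 0.21 without meninges tumor 2 and 0.54 without meninges tumor 3. The vestibular tumor had the highest value, 109.6 RPKM.

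Top2a had the widest range of these genes, at 48.4, 36.3, 20.9 and 105 RPKM in retro-orbital tumors 1 to 4, 87.4, 48.0 and 49.0 in cheek tumors 1 to 3, and 103, 152 and 63.9 in meninges tumors 1 to 3. The vestibular tumor had 95.8 RPKM and the trigeminal tumor 48.6 RPKM. All meninges tumors lay above its median of 56.5 RPKM, while retro-orbital and cheek tumors fell on both sides of it. The difference between meninges and retro-orbital tumors was 1.15 ± 0.51 log2 (SE; limma F test, adjusted p = 0.437).

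The labels' design text sets tumors of cranial nerves beside those of the meninges, so the 3 meninges tumors were also compared with the 9 others. Of 42 members, 35 had a higher mean in the meninges (30 after the scale factor and 33 after quantile normalization), with a median of 0.31 log2, against 62.7% of 15043 genes and a median of 0.12. The median of the members was 0.15 without retro-orbital tumor 3, 0.18 without meninges tumor 1 and 0.19 after the scale factor, and the count ran from 31 to 41 with a tumor left out. No member passed limma at an adjusted p of 0.05, and 4 genes did (0.0266%). The unadjusted p (limma) was under 0.05 for 3 of 42 members (7.14%), Foxm1, E2f2 and E2f8, and for 1333 genes (8.86%). The share of the members was thus below that of all genes. Foxm1, at 14.1, 12.8 and 8.08 RPKM in meninges tumors 1 to 3, had the lowest adjusted p (0.529, limma) and a difference of 0.62 ± 0.26 log2 (SE). It was 4.96 to 6.97 RPKM in the cheek, 5.61 to 10.5 RPKM retro-orbitally, 8.16 RPKM in the vestibular and 11.9 RPKM in the trigeminal tumor. The markers of glia and neurons moved with this contrast, being summed to 129 to 343 RPKM in meninges tumors and 16.6 to 157 RPKM in the others. Their part in the members' differences was not tested.

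To learn how far single genes followed Mki67, each gene was fitted on log2 Mki67 over the 12 tumors. All 41 other members had a positive slope, with a median of 0.74 log2 for each log2 unit of Mki67 and a median r of 0.78. Over all 15042 genes, 63.9% had a positive slope, with a median of 0.12 and a median r of 0.16. No gene passed limma at an adjusted p of 0.05 (0%), members included. At an unadjusted p under 0.05 there were 36 members (87.8%) and 2084 genes (13.9%). Ube2c had the steepest fit relative to its error among members (slope 1.07 ± 0.15, SE; r = 0.92; limma, adjusted p = 0.0585). Cdt1 had the flattest (slope 0.21 ± 0.29, SE; r = 0.21; limma, adjusted p = 0.759). Without the trigeminal tumor 16 members and 284 genes passed, and without retro-orbital tumor 3 there were 5 members and 455 genes.

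The relations chosen for single tests gave the following correlations with Mki67 over the 12 tumors. Their 2-sided permutation p-values were adjusted over the 4 genes only, from a list chosen with earlier results of these data known. In the fit on Mki67 above, adjusted over all genes, none of the 4 passed. The adjusted p (limma) there was 0.0616 for Aurka, 0.1095 for Plk1, 0.093 for Top2a and 0.297 for Pcna. Both the permutation tests and that fit took the 12 tumors as independent, although some shared the first part of an identifier. For Aurka, Pearson's r was 0.904 (permutation p = 0.00028, adjusted 0.00056) and Spearman's rho 0.797 (p = 0.0031, adjusted 0.00724). For Plk1, r was 0.843 (permutation p = 0.00022, adjusted 0.00056) and rho 0.748 (p = 0.00728, adjusted 0.00971). For Top2a, r was 0.839 (permutation p = 0.0012, adjusted 0.0016) and rho 0.790 (p = 0.00362, adjusted 0.00724). For Pcna, r was 0.641 (permutation p = 0.0361, adjusted 0.0361) and rho 0.490 (p = 0.112, adjusted 0.112), so that its rank correlation did not pass. Without retro-orbital tumors 2 and 3, the tumors farthest from the median of Mki67, r was 0.771 for Aurka, 0.677 for Plk1, 0.622 for Top2a and 0.326 for Pcna. The r was lower for each of the 4 genes over this narrower range of Mki67. The slope of Pcna on Mki67, 0.49 over all tumors, was 0.25 without retro-orbital tumor 3 alone and 0.55 without retro-orbital tumor 2 alone.

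**Figure D4:**
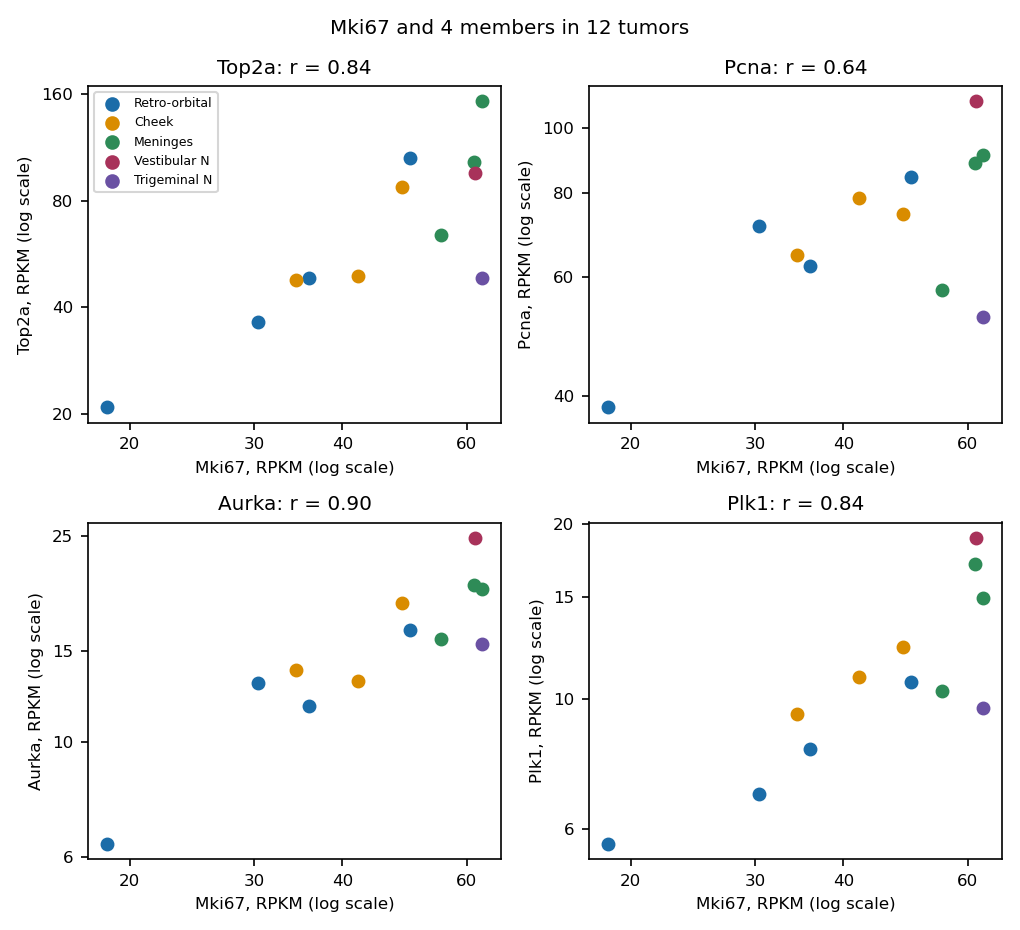
Top2a, Pcna, Aurka and Plk1 (vertical axes) against Mki67 (horizontal axes) in RPKM, on log scales, 1 point a tumor, coloured by location. Aurka stays closest to a line (r = 0.90), while the trigeminal tumor, at 63.0 RPKM of Mki67, lies low for Pcna (52.3 RPKM), Top2a (48.6 RPKM) and Plk1 (9.67 RPKM).

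At the top of its range Mki67 did not separate tumors that the other members did. It was 61.5 to 63.1 RPKM in meninges tumors 1 and 2, the vestibular tumor and the trigeminal tumor, whose means over the members ran from -0.02 to 0.65. In the same tumors Plk1 ran from 9.67 to 18.9 RPKM and Pcna from 52.3 to 109.6 RPKM. In the trigeminal tumor Mki67 lay 0.46 log2 above the value that its own level and that of the tumor give in a median polish, and in meninges tumor 3 0.37 log2 above. The correlation of Mki67 with the mean of the other members was 0.88. It was 0.98 for Mcm2, 0.97 for Mcm3, 0.96 for Mcm5, Kif11, Plk1 and Aurkb, 0.95 for Birc5 and 0.94 for Aurka. The median over members was 0.85, and 0.75 without retro-orbital tumor 3, against 0.13 and 0.23 for 15001 genes outside the list. The lowest correlations were those of Cdt1 (0.43), Foxm1 (0.48), Cdc20 (0.65) and Ccna2 (0.68). These correlations share the same 12 libraries and are given as descriptions.

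Single members left the common pattern in few tumors. After the median of each gene and of each tumor were taken off, 89.9% of the 504 values lay within 0.5 log2 units, 51 lay farther and 4 reached 1 log2 unit. Ccne1 accounted for 2 of the 4. It lay 1.33 below the pattern in retro-orbital tumor 2 (5.06 RPKM) and 1.04 above it in retro-orbital tumor 4 (46.6 RPKM). In the other retro-orbital tumors it was 24.0 and 5.46 RPKM in tumors 1 and 3, so the site held values from near the lowest to near the highest of the series. It was 37.1, 22.4 and 18.97 RPKM in cheek tumors 1 to 3, 52.0, 33.7 and 13.2 in meninges tumors 1 to 3, 32.5 in the vestibular and 11.0 in the trigeminal tumor. Its paralog Ccne2 ran from 2.27 to 13.1 RPKM and was 5.46 RPKM in retro-orbital tumor 4.

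Cdc20 was 74.4 RPKM in meninges tumor 1, 1.22 log2 above the pattern, and 27.2 and 17.0 RPKM in meninges tumors 2 and 3. It was 18.9, 17.96, 21.2 and 27.4 RPKM in retro-orbital tumors 1 to 4, 26.9, 22.8 and 24.9 in cheek tumors 1 to 3, 45.8 in the vestibular and 29.8 in the trigeminal tumor. Leaving meninges tumor 1 aside, the highest value was therefore that of the vestibular tumor. The other 4 checkpoint genes did not share the excess to that degree, with Ube2c 0.55 log2 above the pattern there. E2f2 and E2f8 were also high in meninges tumor 1, at 0.92 and 0.84 log2 above the pattern (8.06 and 11.5 RPKM).

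Top2a lay 1.09 log2 above the pattern in meninges tumor 2 and 0.77 above it in retro-orbital tumor 4. In meninges tumor 2 the ratio of Top2a to Mki67 was thus far from that in the trigeminal tumor, although Mki67 was 63.1 and 63.0 RPKM in them. Aurka and Plk1 departed little: the largest deviation of Aurka was 0.32 log2 above the pattern in retro-orbital tumor 2, and that of Plk1 0.33 log2 above it in meninges tumor 1. The SD of the deviations was 0.15 log2 for Aurka, 0.16 for Plk1 and 0.14 for Birc5, lowest for Mcm2 (0.11) and highest for Ccne1 (0.75), Cdt1 (0.51), Top2a (0.47), Foxm1 (0.47) and Cdc20 (0.47). Ccna2 was highest in cheek tumor 2 and the vestibular tumor (65.5 and 65.2 RPKM) and reached 59.6 RPKM in cheek tumor 3. Cheek tumors 2 and 3 were the most alike of all pairs over the 42 members, at a root mean square difference of 0.17 log2, and were entered as separate tumors. They differed by more than counting error (chi-square for each degree of freedom 10.1), which does not show that they came from separate animals.

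**Figure D5:**
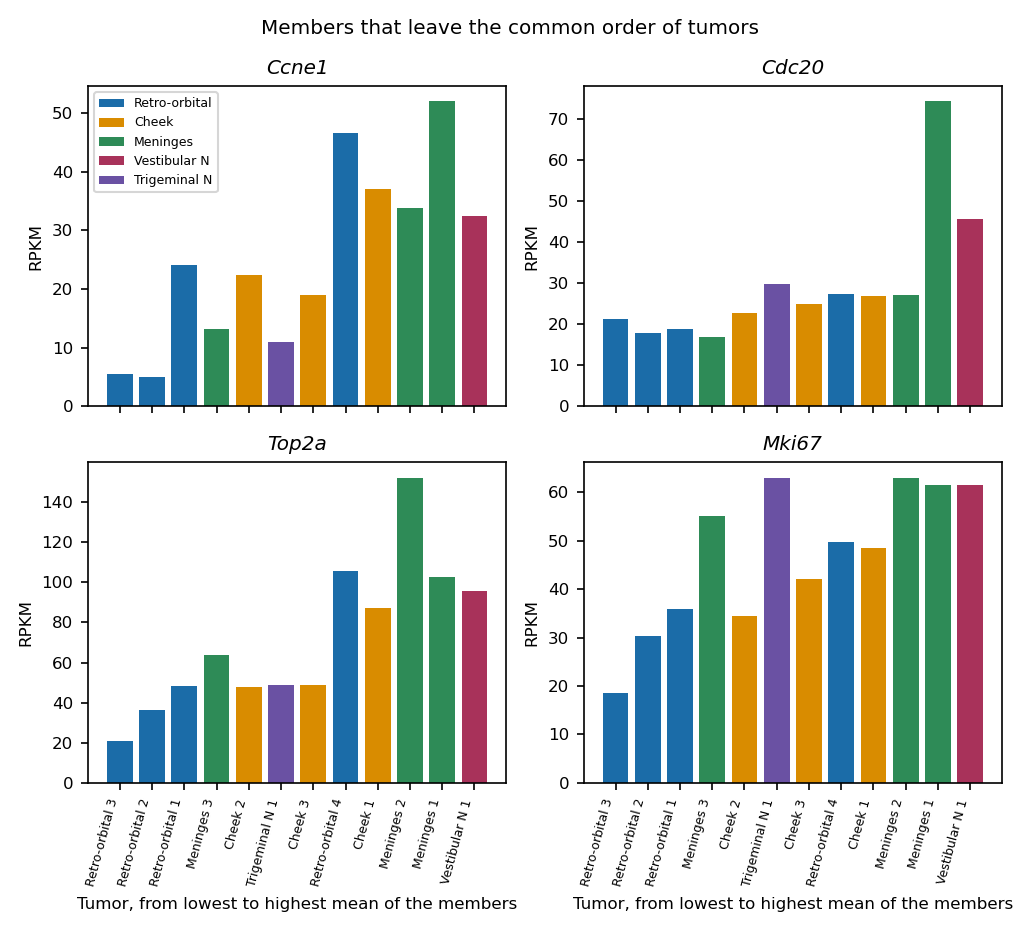
RPKM of Ccne1, Cdc20, Top2a and Mki67 in each tumor (bars, coloured by location, tumors from lowest to highest mean of the members). Ccne1 is low in retro-orbital tumor 2 (5.06) and high in tumor 4 (46.6). Cdc20 stands alone at 74.4 in meninges tumor 1, and Top2a peaks at 152 in meninges tumor 2. Mki67 is as high in the trigeminal tumor (63.0) as in the tumors with the highest means of the members.

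Among genes outside the list, those whose log2 values followed the mean of the members most closely over the 12 tumors included 2810417H13Rik (r = 0.98), Uhrf1, Rfc2, Dnmt1 and Kif22 (0.97 each), Clspn (0.96), Chaf1a (0.95) and Ncaph (0.95). Without retro-orbital tumor 3 their r lay between 0.90 (Ncaph) and 0.97 (2810417H13Rik). Dnmt1, the maintenance DNA methyltransferase, ran from 17.1 to 67.2 RPKM, and Uhrf1, which recruits it to newly copied DNA, from 9.12 to 68.5 RPKM. Rfc2 is a part of the clamp loader, Kif22 a chromosome motor and Ncaph a condensin subunit. An r of at least 0.8 with the members' mean was reached by 3.12% of the 15001 genes outside the list.

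The other genes of both programs, listed apart from the members, moved in the same tumors. Of 28 further S phase genes, 19 had an r of at least 0.8 with the members' mean (median 0.87). The lowest value fell in retro-orbital tumor 3 for 22 of them and the highest in the vestibular tumor for 23, against 16.6% and 20.1% of all genes. Of 28 further M phase genes, 11 had such an r (median 0.75), 23 were lowest in retro-orbital tumor 3 and 14 highest in the vestibular tumor. None of these genes passed limma's F test over locations, the contrast of the meninges or the fit on Mki67 (adjusted p at least 0.0585). At an unadjusted p under 0.05 there were 5, 0 and 22 of the 28 S phase genes and 3, 1 and 20 of the 28 M phase genes in these fits, against 14.3%, 8.86% and 13.9% of all genes. The shares by location and for the meninges were thus near or below those of all genes, at 17.9% and 0% of the S phase and 10.7% and 3.57% of the M phase genes. Nek2, Bora and Anln are named because their values stood apart when seen. The mitotic kinase gene Nek2 was the exception in direction, with r = -0.34 and its highest value, 17.5 RPKM, in retro-orbital tumor 3. Bora, a cofactor of Aurka in the activation of Plk1, was 37.3 RPKM in the vestibular tumor and 3.78 to 10.8 RPKM elsewhere. Anln, which acts in cytokinesis, had its highest value in retro-orbital tumor 2 (59.3 RPKM).

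Of the 10 genes of the DREAM complex and the Rb family, 2 had an r of at least 0.8, Tfdp1 (0.94), the partner of the E2F factors, and the pocket protein Rbl1 (0.88). The retinoblastoma gene Rb1 had a weak negative r (-0.34, 4.45 to 13.7 RPKM) and no clear inverse course. Its lowest value was in the vestibular tumor. Its highest were in meninges tumors 1 (13.7 RPKM) and 2 (13.3 RPKM), where the members were also high, and retro-orbital tumor 3 had 11.7 RPKM. The inhibitors Cdkn1a and Cdkn1b, with r of -0.07 and 0.19, ranged from 17.8 to 90.8 and from 38.1 to 68.7 RPKM, and Cdkn1c, with 0.66, from 1.45 to 36.1 RPKM. None of these genes passed the F test over locations, the contrast of the meninges or the fit on Mki67 (limma, adjusted p at least 0.123). The unadjusted p was under 0.05 for 2, 1 and 4 of the 10 genes of DREAM and the Rb family and for none of the 3 inhibitors, against the same shares of all genes, so that the first counts were close to the background. Tfdp1, Rbl1 and Rb1 were picked after their values were seen.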

How the data were processed

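RNA of 12 tumors was sequenced by the authors as paired ends after ribosomal RNA depletion with a strand-specific kit. Per the paper's methods and the labels, reads were aligned to mm10 with STAR, uniquely mapped reads were counted over RefSeq genes with HTSeq, and the counts were turned into RPKM, the only unit deposited. Raw counts were not used here, so no count test was run. The total that each library was scaled to, 13206168 to 57128422, was worked out from what 1 fragment is worth in the RPKM of a gene. It does not match the number of reads that the paper states, for a reason that is not known.

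Tumors were grouped by the location in the labels. RPKM values were taken as log2(RPKM + 1), and a gene was tested if 3 or more tumors of the fit reached 1 RPKM. Tests were run with limma 3.58.1 (R 4.3.3; trended, robust prior variance) and Benjamini-Hochberg adjustment at 0.05 over all genes tested. Of the 24060 rows, 27 carried a date in place of a symbol and stayed in the fits unnamed. The comparisons were location over 10 tumors, meninges against the 9 other tumors, and log2 Mki67 as a covariate over 12. Mki67 alone was tested by exact permutation of F, and 4 correlations by 100000 resamples, 2-sided. The order of tumors and the deviations of members (median polish) carry no test. Fold changes on the log2(RPKM + 1) scale understate the change of low genes.

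The genes named are all members by function, Mki67, Top2a, Pcna, Aurka and Plk1 in full, in each group the highest and lowest median and the widest range, the 10 nearest genes with a median of at least 1 RPKM (of which 8 are given and the others are not reported here), and any gene called in the pathway and marker lists, up to 5 a list. The members and lists were chosen with earlier results of these data known. Alternatives were another pseudocount (0.1), no filter, a scale factor for each tumor, quantile normalization, a plain prior variance, each tumor left out, and the identifier as a random block. Scripts were tested on simulated data. Python 3.11.15 with numpy 2.4.6, pandas 2.3.3, scipy 1.17.1 and matplotlib 3.10.9 was used.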

Additional observations from a re-analysis of the deposited data

Results flagged for a closer look

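Among the 4 retro-orbital tumors, retro-orbital tumor 3 lay apart for 3 of the 45 values examined (the 42 members and 3 means). The gap to the nearest tumor, as a share of the whole range on the log2(RPKM + 1) scale, was 0.986 for Tpx2, 0.918 for Ccnb2 and 0.874 for Bub1b, above Dixon's critical value for 4 samples at the 95% level. All 3 were lowest in that tumor, and the mean of the members was not flagged. Chance flags about 5% of groups, and the members are measured in the same tumors.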

How the results depend on the processing

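No paired analysis was possible because the labels carry no replicate numbers that tumors of different locations share. Treating the shared first part of the identifier as a random block instead raised the genes called by location from 6 to 2802 and the members from 0 to 8. The block's correlation of 0.93 came from 2 pairs, and the cause of the change was not tested. Plk1, at 0.775 log2 between meninges and retro-orbital tumors, passed only in that fit. By location, 10 genes were called without the filter and 19 with a plain prior variance. Leaving out each tumor gave 0 to 198 genes (198 without cheek tumor 1, 56 without retro-orbital tumor 3, 14 without retro-orbital tumor 1, 3 without meninges tumor 3, 0 without cheek tumor 2, cheek tumor 3 or meninges tumor 1) and 0 members each time. For the meninges, 2 genes were called with the pseudocount of 0.1, 20 without the filter, 2 after quantile normalization, 9 with a plain prior variance and 1 to 18 with a tumor left out (18 without retro-orbital tumor 3, 1 without meninges tumor 1 or 2), and no member in any setting. With Mki67, the pseudocount of 0.1 gave 18 genes and 3 members (Aurkb, Birc5 and Ube2c), and leaving out a tumor gave 0 to 455 genes and 0 to 16 members. The members were not 0 without the trigeminal tumor (16, among them Top2a, Aurka and Plk1) and without retro-orbital tumor 3 (5). The exact p of Mki67 by location ran from 0.007143 (without retro-orbital tumor 4) to 0.1579 (without meninges tumor 2). Regression on the mean of the other members in place of the median polish left 2 deviations of at least 1 log2 unit, Cdc20 in meninges tumor 1 (1.10) and Ccne1 in retro-orbital tumor 4 (1.01). The scale factor shifted tumors by -0.18 to 0.18 log2. The lowest 3 tumors and the highest 3 kept their order under each other pseudocount, summary and scaling tried. Of the members, 36 and 38 were lowest in retro-orbital tumor 3 after the scale factor and quantile normalization, and 22 were highest in the vestibular tumor after either. Cheek tumor 2 and the trigeminal tumor moved from just below 0 to 0.14 and 0.02 after the scale factor, within the spread of tumors, and the median difference of members between meninges and cheek fell to -0.02. Mcm2, Mcm5, Pcna, Rrm1, Tpx2, Bub1 and Kif11 changed direction there, and Cdt1 did so between meninges and retro-orbital tumors under either scaling. By the inferred totals every member had at least 122 fragments in each tumor.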
